A study of Mus musculus with 4 samples.

Results

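A list of 10 vascular endothelial marker genes was followed through 4 microarray libraries of macrophages sorted from mouse hearts. The members are Cdh5, Kdr, Flt1, Tek, Tie1, Egfl7, Fabp4, Cldn5, Vwf and Emcn, chosen by name among 19505 genes on the array. Of the 10, 9 had a named probe set, 1 each, and Egfl7 was not analysed here. The mice were wild type C57BL/6N animals aged 15 to 16 weeks that had undergone transverse aortic constriction (TAC), an operation that narrows the aorta and loads the left ventricle with pressure. Cells from 6 hearts were mixed and sorted by surface marker, and each population, titled Ccrl2, Trem2, CD163 and CD74, gave 1 library on 1 array, so that all 4 share the same surgery, strain and cell mixture. The labels differ among themselves: the source names put the sampling at 8 weeks after TAC and the growth protocol at 1 week, CD9 stands in the source name of the library titled CD74, and Lyve1 takes the place of CD163 in the growth protocol. No unoperated hearts and no sorted endothelial cells were among the samples, and with 1 library per population no difference has a replicate check or a test.

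Endothelial cells line blood vessels and are among the most numerous cells of the heart. They hold together through VE-cadherin and claudin junctions, respond to vascular endothelial growth factor (VEGF) and to angiopoietins through receptor tyrosine kinases, and in heart capillaries take up fatty acids for the muscle. Several of these genes are not exclusive to endothelium. Fabp4 is also made by macrophages and adipocytes, Flt1 and Tek by some monocytes and macrophages, and Vwf by megakaryocytes and platelets.

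All levels are deposited log2 values, in which 1 unit is a 2-fold difference, and levels of different genes are not set against each other because each probe set has its own response. A gene was taken as detected in a library when its value lay above the background ceiling, the 95th percentile of 1500 genes for chemosensory receptors and keratin-associated proteins in that library. The ceiling was 5.67 in Ccrl2, 5.51 in Trem2, 6.28 in CD163 and 6.53 in CD74, and 7454, 8144, 4984 and 3621 genes lay above it in the same order. Of 11 macrophage markers with a probe set, 11 were detected in each of Ccrl2, Trem2 and CD163 and 8 in CD74. The CD74 library thus stood apart from its label, with Mrc1, the mannose receptor, at 9.46 there against the top of the scale, 19.93, in the other libraries, and with 8 of 9 T and NK cell markers detected. Results that rest on CD74 are therefore given beside those of the other 3 libraries.

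Of the 9 endothelial markers with a probe set, 6 were detected in at least 1 library and 3 in none. Detected were 6 of 9 members in Ccrl2, 6 in Trem2, 5 in CD163 and 1 in CD74, against 38.2%, 41.8%, 25.6% and 18.6% of all genes. Leaving out the CD74 library could not change the number detected in at least 1 library, since each of the 6 was detected in Ccrl2 and in Trem2. In bulk samples fewer endothelial cells, less RNA per cell and RNA of these genes from other cells cannot be told apart. Detection also depends on the ceiling, which was higher in CD163 and CD74 than in Ccrl2 and Trem2. The median over the 9 members was 7.39 in Ccrl2, 7.43 in Trem2, 6.59 in CD163 and 5.24 in CD74, while the medians of all genes lay between 5.14 and 5.31.

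**Figure D1:**
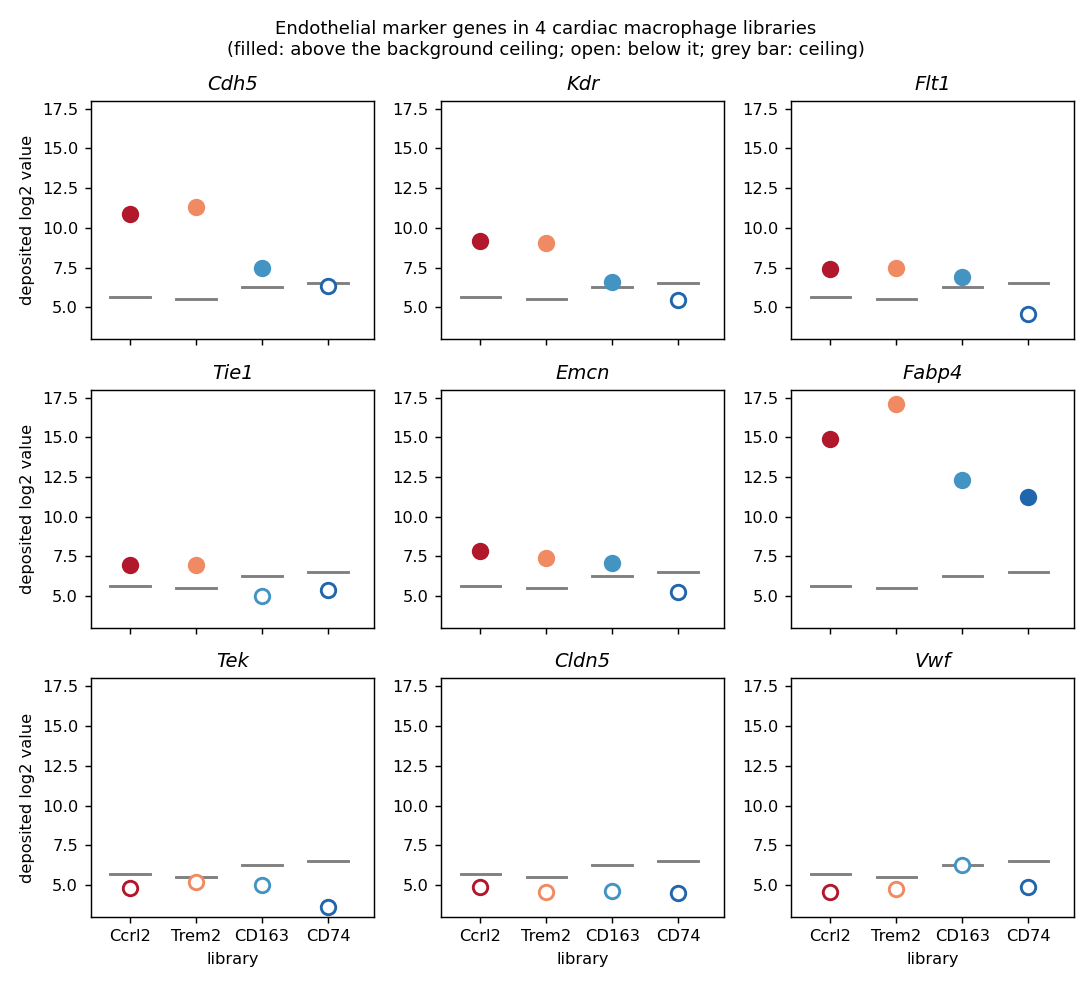
Deposited log2 values (vertical axis) of the 9 endothelial marker genes with a probe set in the 4 libraries (horizontal axis), 1 array each. Filled points lie above the library's background ceiling (grey bar) and open points below it. Cdh5, Kdr and Fabp4 are higher in Ccrl2 and Trem2 than in CD163 and CD74, Tek, Cldn5 and Vwf lie below every ceiling, and Fabp4 is the member detected in CD74.

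Among junction genes, Cdh5 differed widely between the libraries and Cldn5 was not detected. Cdh5, which encodes VE-cadherin of the endothelial adherens junction, had 10.86 in Ccrl2, 11.31 in Trem2, 7.47 in CD163 and 6.36 in CD74. The CD74 value lay 0.17 under its ceiling, so Ccrl2 and Trem2 formed a high pair, CD163 was well below them and CD74 gives only a bound. Cdh5 was 10.5-fold higher in Ccrl2 and 14.3-fold higher in Trem2 than in CD163, a difference that 1.44% and 1.30% of the genes measured in those pairs matched or exceeded. Against CD74 the excess was at least 20.1-fold in Ccrl2 and at least 27.5-fold in Trem2. Cldn5, the claudin of endothelial tight junctions, had 4.86 in Ccrl2, 4.57 in Trem2, 4.62 in CD163 and 4.48 in CD74, all under the ceilings and within 0.38 of each other. At this signal over background no order of the Cldn5 values can be read.

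Of the VEGF receptors, Kdr followed the Cdh5 pattern and Flt1 did so less. Kdr, or VEGFR2, the main signalling receptor for VEGF-A, had 9.20 in Ccrl2, 9.03 in Trem2, 6.59 in CD163 and 5.44 in CD74. CD163 lay 0.31 above its ceiling and CD74 1.09 below. Kdr was 6.11-fold higher in Ccrl2 and 5.43-fold higher in Trem2 than in CD163, and at least 6.36-fold and at least 5.66-fold higher than in CD74. Flt1, or VEGFR1, which binds VEGF-A tightly and also exists as a soluble decoy, had 7.39 in Ccrl2, 7.48 in Trem2, 6.93 in CD163 and an undetected 4.59 in CD74. The first 3 libraries lay within 0.55 log2 units for Flt1, and the differences from CD74 amounted to at least 1.82-fold in Ccrl2, at least 1.93-fold in Trem2 and at least 1.32-fold in CD163, none past the 2-fold mark.

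The angiopoietin receptor pair was split between detected and not detected. Tie1, an orphan receptor that modulates signalling of its relative Tek, had 6.98 in Ccrl2 and 6.99 in Trem2, with 5.04 in CD163 and 5.37 in CD74, both below the ceiling. Because the CD163 and CD74 ceilings were high, the Tie1 excess shown is at least 1.62-fold for Ccrl2 and at least 1.64-fold for Trem2 over CD163, and at least 1.37-fold and at least 1.38-fold over CD74. Tek, or Tie2, the receptor for angiopoietins, had 4.79 in Ccrl2, 5.20 in Trem2, 4.99 in CD163 and 3.60 in CD74, all below background. Detection of Tie1 was thus confined, among these libraries, to Ccrl2 and Trem2, and Tek gave no measurable level in any.

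Of the surface and secreted glycoproteins, Emcn was detected in 3 libraries and Vwf in none. Emcn, which encodes endomucin, a sialomucin of capillary and venous endothelium, had 7.84 in Ccrl2, 7.43 in Trem2, 7.12 in CD163 and an undetected 5.24 in CD74. The first 3 lay within 0.72 log2 units, and against CD74 the excess was at least 2.48-fold in Ccrl2, at least 1.87-fold in Trem2 and at least 1.51-fold in CD163. Vwf, the von Willebrand factor stored in endothelial granules, had 4.57 in Ccrl2, 4.72 in Trem2, 6.27 in CD163 and 4.85 in CD74. The CD163 value of Vwf was the highest of the 4 and lay 0.01 under its ceiling, the closest that any undetected value of these genes came to detection.

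Fabp4, a cytosolic fatty acid carrier of capillary endothelium, adipocytes and macrophages, had a pattern of its own in the Trem2 library. It had 14.88 in Ccrl2, 17.09 in Trem2, 12.32 in CD163 and 11.27 in CD74, so all 4 libraries lay far above their ceilings and none was saturated. Against CD163, Fabp4 was 5.90-fold higher in Ccrl2 and 27.3-fold higher in Trem2. Against CD74 it was 12.2-fold higher in Ccrl2, 56.5-fold in Trem2 and 2.07-fold in CD163. Fabp4 was the member that separated Ccrl2 from Trem2, at 4.63-fold lower in Ccrl2, and 1.09% of the genes measured in that pair fell as far. The adipocyte genes Adipoq, Plin1, Cidec and Lep, listed with the 3 other adipocyte genes that have a probe set, were below the ceiling in every library. The 3 detected, Pnpla2, Lipe and Cebpa, are also used by other cells, and Pnpla2, a triglyceride lipase, had 10.88 in Ccrl2, 11.15 in Trem2, 9.47 in CD163 and 8.09 in CD74. Lipe, hormone-sensitive lipase, had 7.42 in Ccrl2, 7.56 in Trem2, 7.00 in CD163 and an undetected 6.08 in CD74. As deposited, both lipases had the order of libraries that Fabp4 had. No gene of the adipocyte list was 2-fold apart between Ccrl2 and Trem2, so the order of the lipases there rests on small differences. After quantile normalization Lipe was highest in CD163, at 7.32 against 7.09 in Ccrl2 and 7.10 in Trem2. Cebpa did not share that order, with 9.06 in Ccrl2, 8.37 in Trem2, 7.27 in CD163 and an undetected 4.88 in CD74. The Trem2 library also had 8 of 9 neutrophil markers detected, against 4 in Ccrl2, 1 in CD163 and 5 in CD74, and their part in the Fabp4 difference was not tested.

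The start regions of 4 of the detected members, Kdr, Flt1, Tie1 and Emcn, are shown as the regulatory sequence next to genes that were undetected together in CD74. RefSeq promoters (GRCm38.p6) were matched for 7 of the 10 members, namely these 4, Tek, Egfl7 and Cldn5. Each line gives the 250 bases before the transcript start, 5′ to 3′ on the gene's strand, for Kdr at chr5:75978456-75978705 (minus), Flt1 at chr5:147726012-147726261 (minus), Tie1 at chr4:118489850-118490099 (minus) and Emcn at chr3:137340828-137341077 (plus). Capitals mark GGAA, the core bound by ETS factors, or its reverse complement TTCC, and in Flt1 also TGACGTCA, the cAMP response element, which was added to the search after the sequence was read.
Kdr: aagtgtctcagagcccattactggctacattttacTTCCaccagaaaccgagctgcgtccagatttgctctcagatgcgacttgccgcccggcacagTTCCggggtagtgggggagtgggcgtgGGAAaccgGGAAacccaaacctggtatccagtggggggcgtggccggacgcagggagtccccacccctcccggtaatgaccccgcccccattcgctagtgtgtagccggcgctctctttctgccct
Flt1: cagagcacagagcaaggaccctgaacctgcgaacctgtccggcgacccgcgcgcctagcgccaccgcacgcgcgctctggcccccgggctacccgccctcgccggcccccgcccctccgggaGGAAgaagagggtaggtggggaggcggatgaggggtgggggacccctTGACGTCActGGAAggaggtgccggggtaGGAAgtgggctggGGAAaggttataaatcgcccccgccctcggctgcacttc
Tie1: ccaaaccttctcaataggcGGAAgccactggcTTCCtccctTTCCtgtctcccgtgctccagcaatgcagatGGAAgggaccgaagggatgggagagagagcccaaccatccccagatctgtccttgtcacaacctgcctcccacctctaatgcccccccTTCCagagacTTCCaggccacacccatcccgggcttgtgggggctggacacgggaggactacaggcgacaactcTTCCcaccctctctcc
Emcn: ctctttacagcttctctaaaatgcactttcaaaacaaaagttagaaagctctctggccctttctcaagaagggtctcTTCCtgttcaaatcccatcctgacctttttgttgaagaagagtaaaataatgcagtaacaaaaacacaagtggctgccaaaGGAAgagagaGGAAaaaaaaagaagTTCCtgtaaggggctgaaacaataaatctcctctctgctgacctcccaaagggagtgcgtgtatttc
The ETS core on either strand occurred 4 times in Kdr, 4 in Flt1, 7 in Tie1 and 4 in Emcn, and 93.4% of 32851 promoter windows of that length hold it, with a median of 3. Of the undetected members, Tek had 2 matches and Cldn5 had 0, and Vwf had no matched promoter. Cdh5 and Fabp4, both detected, had no matched promoter either, and a link between matches and detection was not tested. The cAMP response element occurred in Flt1, in no other member's window and in 1.5% of all windows, and its match does not overlap an ETS core. The letters CACCC, a core of KLF factors, were present in 52.0% of all windows, with 1 match each in Kdr and Flt1, 2 in Tie1 and 0 in Emcn. The letters GATAA, a core of GATA factors, were present in 22.6% of all windows and in none of the 4 shown. These matches are letters in a window, not measured binding. The Kdr and Flt1 windows lie inside the genes' own annotated spans.

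The comparisons between libraries asked how far the markers moved as a set. A member was counted as higher or lower when the brighter value was detected and lay at least 1 log2 unit above the dimmer value, or above the dimmer library's ceiling where the dimmer value was undetected. Of the 9 members, 5 were measured, or detected in at least 1 of the pair, in CD163 against CD74, and 6 in every other comparison. Counts out of the 9 compare with the shares of all genes, and counts out of the measured members with those of measured genes. In Ccrl2 against CD74, 4 of the 9 members were at least 2-fold higher, namely Cdh5, Kdr, Fabp4 and Emcn, and 0 lower. Emcn dropped out, leaving 3, after quantile normalization and with the ceiling at the 99th percentile. Over all 7902 genes measured in at least 1 of the pair 32.0% were higher and 7.80% lower, or 13.0% and 3.16% of all 19505 genes. In Ccrl2 against CD163, 3 of 9 were higher, Cdh5, Kdr and Fabp4, and 0 lower, against 28.1% higher and 5.03% lower of the measured genes, or 11.4% and 2.04% of all genes. In Ccrl2 against Trem2, 0 of 9 were higher and 1, Fabp4, was lower, against 5.43% and 7.92% of the measured genes, or 2.44% and 3.56% of all genes. The other 5 detected members lay within 0.45 log2 units of each other between Ccrl2 and Trem2.

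In Trem2 against CD74, 3 of 9 were higher, Cdh5, Kdr and Fabp4, and 0 lower, against 32.6% and 7.62% of the measured genes, or 14.3% and 3.33% of all genes. In Trem2 against CD163, 3 of 9 were higher, again Cdh5, Kdr and Fabp4, and 0 lower, against 27.6% and 6.07%, or 12.1% and 2.66% of all genes. In CD163 against CD74, 1 of 9, Fabp4, was higher and 0 lower, against 19.3% and 9.98%, or 5.79% and 2.99% of all genes. These comparisons share libraries and are not independent of each other. With 9 members, 1 gene more or less moves such a share widely, and the counts alone do not set the markers apart.

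The median difference over the 9 members, detected or not, was 2.60 for Ccrl2 minus CD74, 0.72 for Ccrl2 minus CD163, -0.09 for Ccrl2 minus Trem2, 2.19 for Trem2 minus CD74, 0.55 for Trem2 minus CD163 and 1.15 for CD163 minus CD74. Over all genes, most of them undetected in each library, the same medians lay between 0.00 and 0.05. Over the genes measured in each pair they were 0.96, 0.69, -0.08, 1.01, 0.69 and 0.47 in the order above. Against CD163 the member medians of 0.72 and 0.55 take in the undetected Tek, Cldn5 and Vwf, whereas 0.69 covers measured genes only. These sets are unlike. Per measured member, Ccrl2 minus CD163 was 3.39 for Cdh5, 2.61 for Kdr, 2.56 for Fabp4, 1.94 for Tie1, 0.72 for Emcn and 0.46 for Flt1. Trem2 minus CD163 was 3.84, 2.44, 4.77, 1.95, 0.31 and 0.55 in that order, with Tie1 undetected in CD163. With undetected values taken as deposited, 2.60 and 2.19 are the Emcn differences and 1.15 is that of Kdr, all against undetected CD74 values. The ceiling shows only at least 1.31 and at least 0.90 log2 units for Emcn and at least 0.06 for Kdr in those comparisons. After quantile normalization the member medians were 1.46, 0.43, 0.04, 1.85, 0.39 and 1.33 in the same order. Those of all genes lay between -0.01 and 0.03, and those of the measured genes were 0.36, 0.19, -0.01, 0.39, 0.20 and 0.21.

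**Figure D2:**
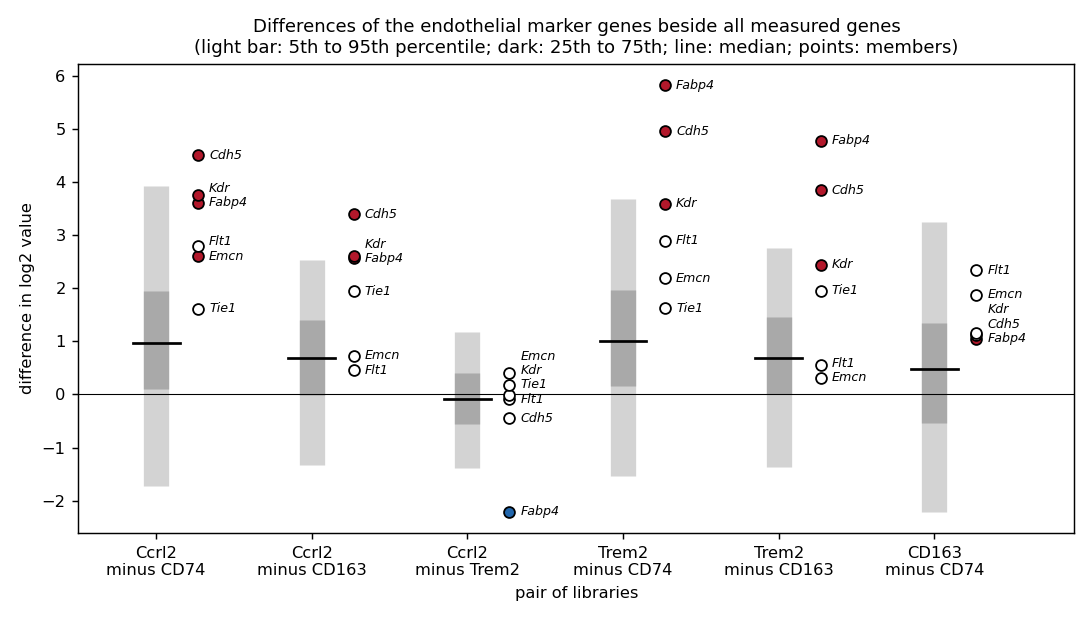
Difference in log2 value (vertical axis) for the members measured in each pair of libraries (points, horizontal axis), beside the 5th to 95th percentile (light bar), the range between the quartiles (dark bar) and the median (line) of all measured genes. Red points were counted as higher, the blue point as lower and white points as neither, with undetected values plotted as deposited. Cdh5 lies above the 95th percentile in both comparisons of Ccrl2 and in both of Trem2 with CD163 and CD74, and Fabp4 is the point far below 0 in Ccrl2 minus Trem2.

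The deposited columns did not share a distribution, with 95th percentiles over all genes of 10.09 in Ccrl2, 10.20 in Trem2, 8.86 in CD163 and 8.23 in CD74, so the same differences were computed after quantile normalization. Cdh5 then differed by 2.21 log2 units in Ccrl2 minus CD163 and by 2.52 in Trem2 minus CD163, and, its CD74 value being undetected, by at least 3.09 in Ccrl2 minus CD74 and at least 3.39 in Trem2 minus CD74. Kdr differed by 1.71 and 1.53 against CD163 and by at least 1.54 and at least 1.36 against CD74 in Ccrl2 and Trem2. Fabp4, detected throughout, differed by 1.31 and 3.61 against CD163 and by 1.30 and 3.60 against CD74. All 3 genes stayed past the 2-fold mark in these 4 comparisons. Flt1 and Emcn turned round against CD163, with -0.16 and -0.06 in Ccrl2 minus CD163 and -0.19 and -0.47 in Trem2 minus CD163. The Fabp4 difference between CD163 and CD74 went to -0.01, so its order in those libraries depends on the scaling, while Ccrl2 minus Trem2 for Fabp4 was -2.30.

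**Figure D3:**
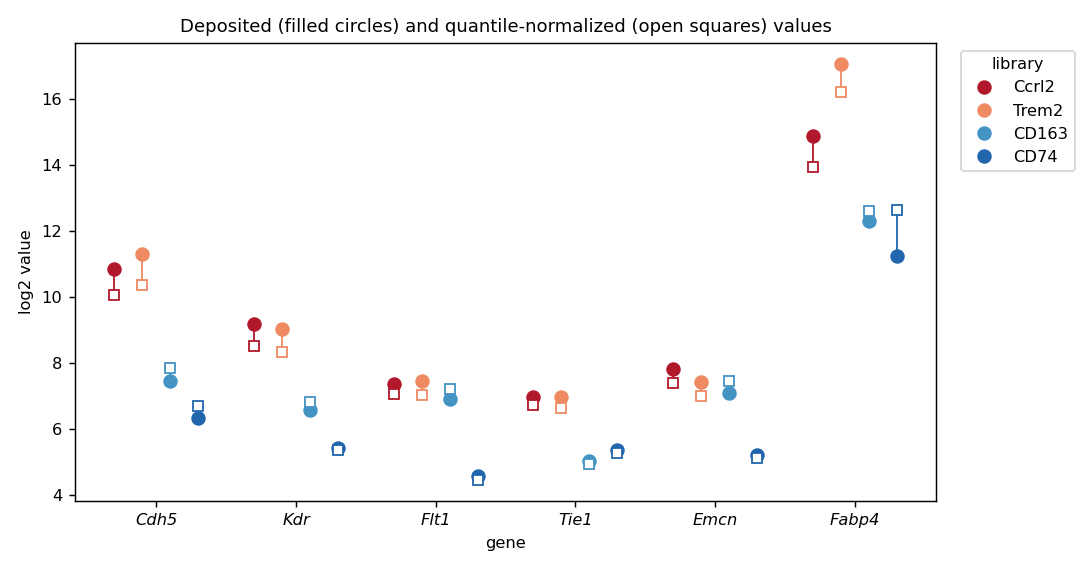
Log2 values (vertical axis) of the 6 detected endothelial markers (horizontal axis) in the 4 libraries, as deposited (filled circles) and after quantile normalization (open squares). The gaps of Cdh5, Kdr and Fabp4 between Ccrl2 or Trem2 and the other libraries become smaller but keep their direction, whereas the Fabp4 squares of CD163 and CD74 coincide at 12.63 and 12.64.

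Other genes of endothelium were measured as lists to see how far the markers stood alone. Of 24 other pan-endothelial genes with a probe set, 13 were detected in Ccrl2, 15 in Trem2, 6 in CD163 and 6 in CD74. Against CD163, 5 were at least 2-fold higher and 1 lower in Ccrl2, and 6 higher and 1 lower in Trem2, with Esam, a junction adhesion molecule, as the lower gene. Against CD74, 5 were higher and 0 lower in Ccrl2, and 6 higher and 1 lower in Trem2. After quantile normalization these counts were 1 higher and 2 lower, 3 and 2, 3 and 3, and 3 and 2 in the same order, so the excess of higher over lower genes came to at most 1. Eng, or endoglin, a transforming growth factor beta coreceptor also found on macrophages, had 9.74 in Ccrl2, 10.30 in Trem2, 8.04 in CD163 and 6.81 in CD74. Adgrl4, an adhesion receptor of endothelial cells, had 9.20 in Ccrl2, 10.28 in Trem2, 7.47 in CD163 and 7.62 in CD74. S1pr1, the sphingosine phosphate receptor that lymphocytes share, had 8.30 in Ccrl2, 8.44 in Trem2, 8.35 in CD163 and 8.10 in CD74, or 7.80, 7.83, 8.85 and 9.15 in that order after quantile normalization.

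Capillary genes of fatty acid handling repeated the order of the markers in part. Of 12, 7 were detected in Ccrl2, 11 in Trem2, 4 in CD163 and 2 in CD74. Cd36, a fatty acid translocase that macrophages also carry, had 12.32 in Ccrl2, 12.56 in Trem2, 10.15 in CD163 and an undetected 5.69 in CD74. Aqp1, a water channel of capillaries, had 9.02 in Ccrl2, 9.38 in Trem2, 7.29 in CD163 and an undetected 3.90 in CD74. Against CD163, 3 of the 12 were higher in Ccrl2 and 2 in Trem2, with 0 lower in both, or 0 and 1 higher after quantile normalization. Gpihbp1, the capillary anchor of lipoprotein lipase, had 6.57 in Ccrl2, 7.11 in Trem2, 7.01 in CD163 and 7.04 in CD74.

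Genes that mark vessel types added little. Of 11 arterial genes, 3 were detected in Ccrl2, 7 in Trem2, 2 in CD163 and 0 in CD74, and as deposited none was 2-fold apart in any of the 6 comparisons, while 1 was lower in Ccrl2 against CD163 after quantile normalization. Of 11 venous and endocardial genes, 4, 3, 2 and 0 were detected in that order of libraries, and Vcam1, an adhesion molecule of activated endothelium and of some macrophages, had 11.61 in Ccrl2, 9.83 in Trem2, 7.70 in CD163 and an undetected 6.43 in CD74. Of 6 lymphatic genes, 3, 3, 1 and 0 were detected, and none was 2-fold apart in any comparison.

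Of 8 VEGF and angiopoietin ligands, 2 were detected in Ccrl2, 3 in Trem2, 1 in CD163 and 1 in CD74. Vegfa, the ligand of Kdr and Flt1, had 7.19 in Ccrl2, 6.91 in Trem2, 6.72 in CD163 and an undetected 5.97 in CD74. Angpt1, the activating ligand of Tek, had 6.59 in CD74, barely above the ceiling of 6.53 there. It had 5.08, 4.72 and 4.56, all below the ceiling, in Ccrl2, Trem2 and CD163. Ptprb, the endothelial phosphatase VE-PTP that acts on Tek and VE-cadherin, had 7.53 in Ccrl2, 7.13 in Trem2 and undetected values of 6.10 in CD163 and 4.79 in CD74. Nrp2, a VEGF coreceptor also present on macrophages, had 8.22 in Ccrl2, 8.47 in Trem2, 8.32 in CD163 and an undetected 4.89 in CD74. Against CD163, some partners ran the other way. Dok2, an adaptor that binds activated Tek and is abundant in blood cells, had 11.27 in Ccrl2, 11.14 in Trem2, 12.91 in CD163 and 9.65 in CD74. Plcg1, the phospholipase that Kdr activates and that T cells also use, had 7.74 in Ccrl2, 7.59 in Trem2, 10.04 in CD163 and 9.27 in CD74. Of the 8 coreceptor and partner genes with a probe set, 1 was higher and 2 lower in Ccrl2 against CD163, and 0 higher and 2 lower in Trem2 against CD163, or 0 and 4, and 0 and 2, after quantile normalization. Against CD74, 3 of these genes were higher and 1 lower in Ccrl2, and 2 higher and 1 lower in Trem2. As deposited, Dok2 was among the higher genes in both and Plcg1 was the lower. After quantile normalization the counts against CD74 were 0 higher and 1 lower in both. Flt4, the VEGF-C receptor, was below the ceiling in every library.

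Markers of other heart cells were read in the same libraries, since each sorted population can carry cells or RNA of others. Of 13 fibroblast markers, 11 were detected in Ccrl2, 10 in Trem2, 4 in CD163 and 3 in CD74, and the log2 of their summed linear values was 13.44, 13.21, 9.78 and 10.05. Of 12 cardiomyocyte markers, 12, 11, 10 and 6 were detected, with summed levels of 13.77, 14.48, 12.53 and 11.90. Cardiomyocyte genes gave 6 higher and 0 lower in Ccrl2 against CD74 and 7 and 0 in Trem2 against CD163, but 0 and 2, and 3 and 2, after quantile normalization. Fibroblast genes gave 8 higher and 0 lower in Ccrl2 against CD163, and 6 and 0 after quantile normalization. Of 12 mural cell markers, 3, 3, 0 and 0 were detected, with summed levels between 8.62 and 9.08, and Cspg4, Kcnj8, Abcc9, Notch3 and Higd1b lay below every ceiling. Of 8 platelet markers, 2, 2, 2 and 1 were detected. Pf4 had 9.86 in Ccrl2, 10.58 in Trem2, 10.36 in CD163 and an undetected 5.71 in CD74. Itga2b was detected in Ccrl2 and Trem2, and Clec1b in CD163 and CD74. The platelet genes Ppbp, Gp9, Gp6, Treml1 and Tubb1 lay below every ceiling. In Trem2 against CD74, 4 of the 13 fibroblast markers were higher and 0 lower, or 2 higher and 1 lower after quantile normalization. Dcn, among the higher, had 12.65 in Ccrl2, 12.67 in Trem2, 7.01 in CD163 and an undetected 4.71 in CD74. Not every marker ran this way: Col1a1, a collagen chain, had 7.92 in Ccrl2, 6.91 in Trem2, 6.82 in CD163 and 7.87 in CD74. Actc1, cardiac actin, had 10.47 in Ccrl2, 9.81 in Trem2, 10.34 in CD163 and 9.69 in CD74.

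Lymphocyte markers also differed between these libraries. Of 7 B cell markers, 5 were detected in Ccrl2, 7 in Trem2, 2 in CD163 and 5 in CD74. Against CD163, 2 were higher in Ccrl2 and 5 in Trem2 with 0 lower, or 1 and 3 after quantile normalization. In Trem2 against CD74, 4 were higher and 0 lower, while quantile normalization gave 1 each way. Of 9 T and NK cell markers, 0 were detected in Ccrl2, 6 in Trem2, 1 in CD163 and 8 in CD74. Against CD163, 0 were higher in Ccrl2 and 5 in Trem2, or 0 and 1 after quantile normalization. The part of fibroblast, cardiomyocyte and lymphocyte RNA in the endothelial result was not tested.

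**Figure D4:**
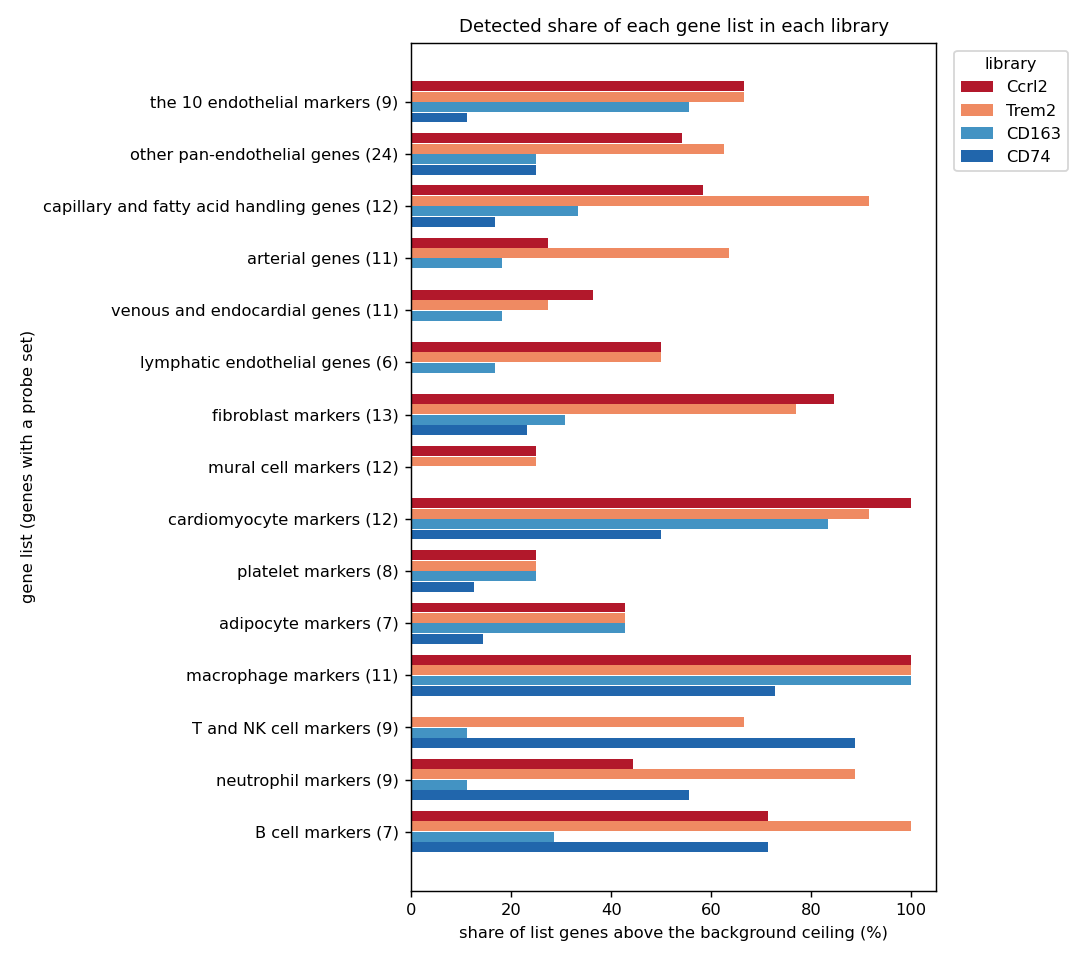
Share of genes above the background ceiling (horizontal axis, percent of genes with a probe set, whose number is in parentheses) for each list of cell markers (vertical axis) in the 4 libraries (bars). Endothelial, fibroblast and cardiomyocyte lists have larger shares detected in Ccrl2 and in Trem2 than in CD163 and CD74. The shares of all genes, not drawn, also do, at 38.2% in Ccrl2, 41.8% in Trem2, 25.6% in CD163 and 18.6% in CD74. Macrophage markers are all detected except in CD74, and T and NK cell markers are detected mainly in Trem2 and CD74.

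Over the 4 libraries the members' mean profile, each value taken from the gene's own mean, was 0.77 in Ccrl2, 1.04 in Trem2, -0.34 in CD163 and -1.47 in CD74. Emcn lay nearest to it, at a distance of 0.80, and Fabp4 and Vwf farthest, at 2.74 each. The 8 other genes nearest to the profile were Ptp4a2, Psmb3, Lamtor4, Ehbp1, Umps, Baiap2, Ctdsp1 and Ier5, at distances from 0.09 to 0.16 over 4 libraries. Ptp4a2, a widely used phosphatase, had 16.79 in Ccrl2, 16.96 in Trem2, 15.70 in CD163 and 14.52 in CD74. Of 9340 measured genes outside the list, 930 lay nearer to the profile than the nearest member did. The profile averages detected and undetected members alike, on deposited columns that differ in scale. With 4 libraries this count therefore cannot tell whether endothelial genes share a pattern of their own.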

How the data were processed

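The data were 4 Clariom S mouse arrays, 1 per sorted macrophage population. Per the labels' protocols, the authors summarised probe intensities by robust multichip average (RMA) and used GeneSpring. Affymetrix Expression Console is named in the submitters' processing notes. The authors deposited 1 log2 value per probe set and library, a scale inferred from the range of 2.97 to 19.93. The sources used here give neither RMA settings nor the probes' build.

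Of 28846 probe sets, 6640 were controls. Of the 22206 for genes, the platform annotation gave 1 symbol for 19572, none for 2634 and several for 0, and all 19572 matched the RefSeq gene table by gene number. For 55 genes with several probe sets the set with the highest mean was used. Named were all members, from each other list genes among the 4 with the highest mean and the 2 with the largest range, and the 8 genes nearest to the members' profile. Genes named only as undetected, and Esam, were chosen after their values were seen. Motifs were searched on both strands.

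With 1 library per group no test was possible, and folds are given as "at least" where the dimmer value lay under its ceiling. The members and lists were chosen with earlier results of these data known. Cd74 itself was not analysed here. Python 3.11.15, numpy 2.4.6, pandas 2.3.3 and matplotlib 3.10.9 were used. Precision is limited by the number of arrays. Alternatives were quantile normalization, median centring, a ceiling at the 99th percentile, no ceiling, the mean over probe sets, and 1.5-fold and 4-fold thresholds.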

Additional observations from a re-analysis of the deposited data

How the results depend on the processing

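Over 13 counts of members and their alternatives, 85 of 96 values stayed within 1.5 times the count reported, and 11 did not. Part of this was fixed in advance, so the 85 does not measure robustness. No member had several probe sets, so the mean over probe sets could change none of its 13 values. The detected count could not change on centring or on leaving out CD74. A higher ceiling or fold cannot raise a count of 0. Quantile normalization gave 0 members higher in CD163 against CD74, where the Fabp4 difference turned to -0.01. Centring the columns on their medians gave 5 higher in Trem2 against CD74. With no ceiling, 7 were higher in each of Ccrl2, Trem2 and CD163 against CD74, and 1 each, Vwf, was lower in Ccrl2 and in Trem2 against CD163. At 1.5-fold, 5 were higher in Ccrl2 against CD163, 5 in Trem2 against CD74 and 3 in CD163 against CD74. At 4-fold, 0 were higher in CD163 against CD74. Quantile normalization of Ccrl2, Trem2 and CD163 without the CD74 library, chosen after seeing the data, changed none of the 7 counts it could give. For these changes the cause was not tested, except that a ceiling or threshold that is lowered lets in more genes by construction. The ceilings of 6.28 in CD163 and 6.53 in CD74 limit what can be shown for members near background. No paired analysis was possible because each population was 1 library.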

Other observations

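Partners of VE-cadherin in the adherens junction were measured beside Cdh5. Of 10 junction partner genes with a probe set, 6 were detected in Ccrl2, 8 in Trem2, 3 in CD163 and 2 in CD74. Ctnna1, which encodes alpha-catenin and links cadherins to actin in many cell types, had 10.24 in Ccrl2, 9.02 in Trem2, 8.23 in CD163 and an undetected 5.43 in CD74. Jup, or plakoglobin, had 9.32 in Ccrl2, 8.99 in Trem2, 7.91 in CD163 and an undetected 5.65 in CD74. Against CD163 the counts were 2 higher and 0 lower in Ccrl2 and 2 higher and 0 lower in Trem2, and 0 higher after quantile normalization in both.

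Of 17 transcription factors of endothelial cells, 12 were detected in Ccrl2, 13 in Trem2, 7 in CD163 and 5 in CD74, and Sox7, Sox17, Sox18 and Tal1 lay below every ceiling. Fli1, an ETS factor shared by endothelial and blood cells, had 11.36 in Ccrl2, 11.57 in Trem2, 9.77 in CD163 and 9.16 in CD74. Ets1, an ETS factor that lymphocytes also use, had 9.81 in Ccrl2, 11.25 in Trem2, 7.44 in CD163 and 12.13 in CD74, an order unlike that of the markers. Against CD163, 6 of the 17 were higher in Ccrl2 and 8 in Trem2 with 0 lower, or 2 higher and 0 lower, and 2 higher and 2 lower, after quantile normalization.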
